A study of Sus scrofa with 15 samples.

Results

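The genes examined here encode heat shock proteins, the J-domain and BAG cochaperones that work with them, the cytosolic chaperonin CCT and the heat shock transcription factors. They were followed through cloned pig embryos and the fibroblasts from which these were made. Members were chosen by a rule on gene symbols that held none of their values, although earlier results of these data were known: symbols starting with HSPA, HSPB, HSPD, HSPE or HSPH, the numbered DNAJA, DNAJB and DNAJC genes, CCT2 to CCT8, TCP1, BAG1 to BAG6 and the numbered HSF genes. With 1 entry kept per gene ID, 87 of the 43294 features in the table were members. They comprised 27 DNAJC, 13 DNAJB, 12 HSPA, 10 CCT, 7 HSPB, 5 BAG, 4 DNAJA and 3 HSF genes, HSPD1 and HSPE1, HSPH1, and 3 genes whose symbols start with HSPB but which are not small heat shock proteins (HSPB11, HSPBP1 and HSPBAP1).

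RNA-seq was performed on 15 libraries, 3 in each of 5 groups. PFF are cultured pig fetal fibroblasts of passage 2 to 5, the nuclear donors, and the other libraries each came from a pool of 30 somatic cell nuclear transfer (SCNT) embryos. Per the methods, RNA was extracted with TRIzol from PFF and with a PicoPure kit from embryos, and the cDNA of both was amplified before sequencing. Extraction and cell type therefore cannot be told apart in comparisons of embryos with PFF. SCNT4c and SCNT8c are untreated cloned embryos at the 4-cell and 8-cell stage. SCNT4c-KG embryos were injected with 1000 ng per µl of mRNA for the histone demethylase KDM4A at 5 h after activation and were kept until 48 h in 0.1 µM GSK126, which inhibits the histone methyltransferase EZH2. SCNT4c-TDG embryos were made from a PFF line that carried a doxycycline-inducible vector for thymine DNA glycosylase (TDG) and had been selected with puromycin, and they received 500 ng per ml of doxycycline from 40 to 72 h. SCNT4c-TDG therefore differed from SCNT4c in donor line, selection and doxycycline as well as in TDG, and these cannot be told apart here, since no group that received doxycycline alone was analysed here. KDM4A and GSK126 were likewise given together.

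Proteins of the HSPA family (HSP70) bind unfolded stretches of other proteins and release them in a cycle driven by ATP. J-domain proteins of the DNAJ families bring them their clients and speed up this cycle, whereas BAG proteins and HSPH1 (HSP110) exchange the bound nucleotide. Small heat shock proteins (HSPB) hold unfolding proteins in solution, HSPD1 and HSPE1 form the folding chamber of mitochondria, and the CCT subunits with TCP1 form the ring that folds actin and tubulin in the cytosol. The transcription factors HSF1 and HSF2 bind heat shock elements upstream of many of these genes. In early mammalian embryos, heat shock genes are known to be among those transcribed when the embryonic genome is switched on, and eggs carry stored chaperone transcripts.

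Values are normalized read counts, that is, counts divided by 1 factor per library, and they are listed in the order of replicates 1, 2 and 3, or of libraries a, b and c for SCNT4c, whose sample numbers conflict in the labels. The reads behind them ranged from 12354649 to 22868038 per library, and were fewest in SCNT4c-KG. The methods say that experiments were repeated, but nothing ties the 3 libraries of a group to separate cultures, animals or days of cloning, so the p-values measure only the spread between these pools. Markers fitted the labelled sources: the summed level of 12 fibroblast genes was 3873240 to 4103230 in PFF and 1627 to 5460 in the embryos, and that of 11 oocyte genes was 11.5 to 20.3 in PFF, 70138 to 91203 in SCNT4c, 31656 to 58143 in SCNT4c-KG, 16595 to 18670 in SCNT4c-TDG and 37988 to 46336 in SCNT8c, although BMP15, GDF9 and MOS were listed at 0 in every embryo group. The sum of 11 listed cumulus cell genes was 582 to 1962 in the embryos and 2841 to 3189 in PFF, so it did not set cumulus cells apart from fibroblasts, with AMH, FOXL2 and PTX3 at 0 in all 4 embryo groups. TDG had a mean of 55575 in SCNT4c-TDG and 1713 in SCNT4c, and KDM4A a mean of 1448 in SCNT4c-KG and 194 in SCNT4c, where injected mRNA and transcription of the gene cannot be told apart. Each was also above SCNT4c in the other treatment, with means of 4366 for TDG in SCNT4c-KG and 775 for KDM4A in SCNT4c-TDG, and KDM4A had 5005 in PFF. SCNT8c replicate 3 stood apart: 36 of the 59 members tested lay nearer the SCNT4c mean than the mean of the other SCNT8c libraries (69.0% of all features), against 8 members for replicate 1 (31.0%) and 14 for replicate 2 (30.8%).

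The stretches around the annotated starts of 6 members are shown because these genes carry the main results: DNAJB1, HSPA8 and HSPE1 rose in SCNT4c-KG, DNAJA1 led the SCNT4c libraries, HSPD1 lies back to back with HSPE1, and HSPA5 differed between SCNT4c-TDG and SCNT4c-KG. Each runs from 250 bases before to 50 bases after the start in Sscrofa11.1 (RefSeq), 5′ to 3′ on the gene's strand. Capitals mark paired heat shock units, GAANNTTC or TTCNNGAA, and in HSPA5 the endoplasmic reticulum stress element, CCAAT and CCACG with 9 bases between them.
DNAJB1, chr2:64761422-64761721, plus strand: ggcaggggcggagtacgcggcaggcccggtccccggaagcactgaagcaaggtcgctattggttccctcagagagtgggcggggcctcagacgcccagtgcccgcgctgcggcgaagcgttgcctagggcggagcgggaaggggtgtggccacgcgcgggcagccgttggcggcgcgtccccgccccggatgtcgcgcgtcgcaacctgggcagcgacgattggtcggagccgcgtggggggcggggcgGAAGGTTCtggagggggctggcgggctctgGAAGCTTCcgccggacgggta
HSPA8, chr9:49986711-49987010, minus strand: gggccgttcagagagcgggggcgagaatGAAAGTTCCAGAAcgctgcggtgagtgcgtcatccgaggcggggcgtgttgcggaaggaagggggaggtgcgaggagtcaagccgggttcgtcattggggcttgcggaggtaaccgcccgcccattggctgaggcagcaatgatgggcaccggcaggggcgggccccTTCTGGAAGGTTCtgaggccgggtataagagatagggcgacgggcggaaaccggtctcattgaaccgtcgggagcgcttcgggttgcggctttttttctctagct
DNAJA1, chr10:33445507-33445806, minus strand: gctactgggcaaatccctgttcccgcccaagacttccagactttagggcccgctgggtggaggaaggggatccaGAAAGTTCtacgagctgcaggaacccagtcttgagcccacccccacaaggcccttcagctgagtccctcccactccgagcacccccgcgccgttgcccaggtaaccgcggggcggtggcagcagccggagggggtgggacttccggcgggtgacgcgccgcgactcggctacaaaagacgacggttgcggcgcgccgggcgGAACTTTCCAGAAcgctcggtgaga
HSPD1, chr15:101373449-101373748, minus strand: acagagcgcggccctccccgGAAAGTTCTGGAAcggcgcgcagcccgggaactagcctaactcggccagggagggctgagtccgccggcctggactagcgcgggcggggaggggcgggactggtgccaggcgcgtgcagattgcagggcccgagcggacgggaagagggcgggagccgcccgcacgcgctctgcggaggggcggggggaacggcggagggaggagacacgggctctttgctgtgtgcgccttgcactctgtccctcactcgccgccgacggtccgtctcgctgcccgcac
HSPE1, chr15:101373769-101374068, plus strand: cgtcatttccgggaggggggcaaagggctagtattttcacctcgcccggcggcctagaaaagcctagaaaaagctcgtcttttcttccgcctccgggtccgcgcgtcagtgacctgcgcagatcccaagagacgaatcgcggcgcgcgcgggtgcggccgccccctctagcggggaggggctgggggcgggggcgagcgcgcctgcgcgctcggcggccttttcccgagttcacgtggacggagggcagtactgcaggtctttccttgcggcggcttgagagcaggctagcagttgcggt
HSPA5, chr1:265934910-265935209, minus strand: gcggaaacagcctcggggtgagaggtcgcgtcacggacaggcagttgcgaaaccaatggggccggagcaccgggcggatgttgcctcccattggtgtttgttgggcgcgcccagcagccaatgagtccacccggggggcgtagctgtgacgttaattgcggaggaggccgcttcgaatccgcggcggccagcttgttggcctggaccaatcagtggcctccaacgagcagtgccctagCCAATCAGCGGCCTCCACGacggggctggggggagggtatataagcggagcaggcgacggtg

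Both strands were searched over 19545 protein-coding gene starts. A paired unit was found in 24 of the 87 members (27.6%) and in 12.3% of all windows. A run of 3 such units, GAA and TTC in alternation with 2 bases between each, which contains the paired form, was found in 5 members (5.75%; DNAJA1, DNAJB6, DNAJB14, HSPA8 and HSPD1) and in 0.379% of all windows. Matches began at positions -1 and 30 from the start of DNAJB1, at -222, -217, -55 and -50 in HSPA8, at -176, 26 and 31 in DNAJA1 and at -230 and -225 in HSPD1. The HSPE1 window held no match, and HSPE1 was counted below as without one. However, the HSPD1 matches lie in the 520 bases between HSPD1 and HSPE1, just outside the HSPE1 window. HSPA5 was the member with the endoplasmic reticulum stress element, at -12, which 0.0819% of all windows held. A match is a description of the letters, not evidence that a factor binds. In SCNT4c-KG against SCNT4c, 6 of the 21 tested members with a paired unit rose and 2 fell (median log2 fold change 0.03), while 6 of the 38 without one rose and 8 fell (median -0.31), where 17.6% of all features rose and 19.6% fell. In SCNT4c-TDG 4 with a unit rose and 4 fell, and 9 without one rose and 9 fell (15.7% and 17.6% of all features). Between SCNT4c-TDG and SCNT4c-KG 1 with a unit was higher and 5 lower, and 7 without one were higher and 4 lower (7.07% and 9.13% of all features). In SCNT8c 0 of the 21 with a unit changed and 3 of the 38 without one did, near the 5.79% of all features.

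Of the 87 members, 59 passed the filter on low values (a mean of at least 10) among the 12 embryo libraries, 59 passed it in the comparison with PFF, and 24 passed neither. A feature counted as changed when limma gave a Benjamini-Hochberg adjusted p under 0.05 over all features tested and the fold change was above 2. Fold changes are on the log2(value + 1) scale, which understates those of low genes. By this rule 40 of the 59 members tested in the embryos changed in at least 1 of the 4 embryo comparisons (67.8%, beside 53.3% of all features), and 54 of the 63 tested anywhere changed in at least 1 of all 5 (85.7%, beside 82.7%), whereas 19 tested members changed in no embryo comparison, among them HSPD1, HSPA9, HSPH1, HSPA4, TCP1, CCT6A, DNAJA2 and DNAJC3.

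In SCNT4c-KG, 12 of the 59 tested members rose and 10 fell relative to SCNT4c. The share of members changed was 37.3%, near the 37.2% of all features (17.6% higher and 19.6% lower), and the median log2 fold change was -0.09 for the members and -0.30 for all features. In SCNT4c-TDG, 13 rose and 13 fell, 44.1% of the members, where 33.3% of all features changed (15.7% higher and 17.6% lower), with medians of 0.07 and -0.26. Both comparisons share the SCNT4c libraries. Compared directly, 8 members were higher and 9 lower in SCNT4c-TDG than in SCNT4c-KG, where 16.2% of all features differed (7.07% higher and 9.13% lower). Scaling moved these splits, and those of all features with them. With edgeR 15 members rose and 7 fell in SCNT4c-KG (16.4% and 14.3% of all features), and with DESeq2 18 rose and 9 fell (20.4% and 17.8%). With the same total in each library only 9 of 21 changed members rose in SCNT4c-KG (16.5% of all features rose and 21.3% fell). In a fit of the 2 groups alone 10 of 24 rose (18.9% and 22.1%). With the same total in each library 16 rose and 10 fell in SCNT4c-TDG (18.5% and 14.4% of all features), and 10 were higher and 5 lower in SCNT4c-TDG than in SCNT4c-KG (10.8% and 6.04%). Without SCNT4c-TDG replicate 2 the 26 changes against SCNT4c became 16 (24.2% of all features), and without replicate 1 they became 17 (23.7%). In such pools, more RNA per cell and more cells that hold a transcript cannot be told apart.

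**Figure D1:**
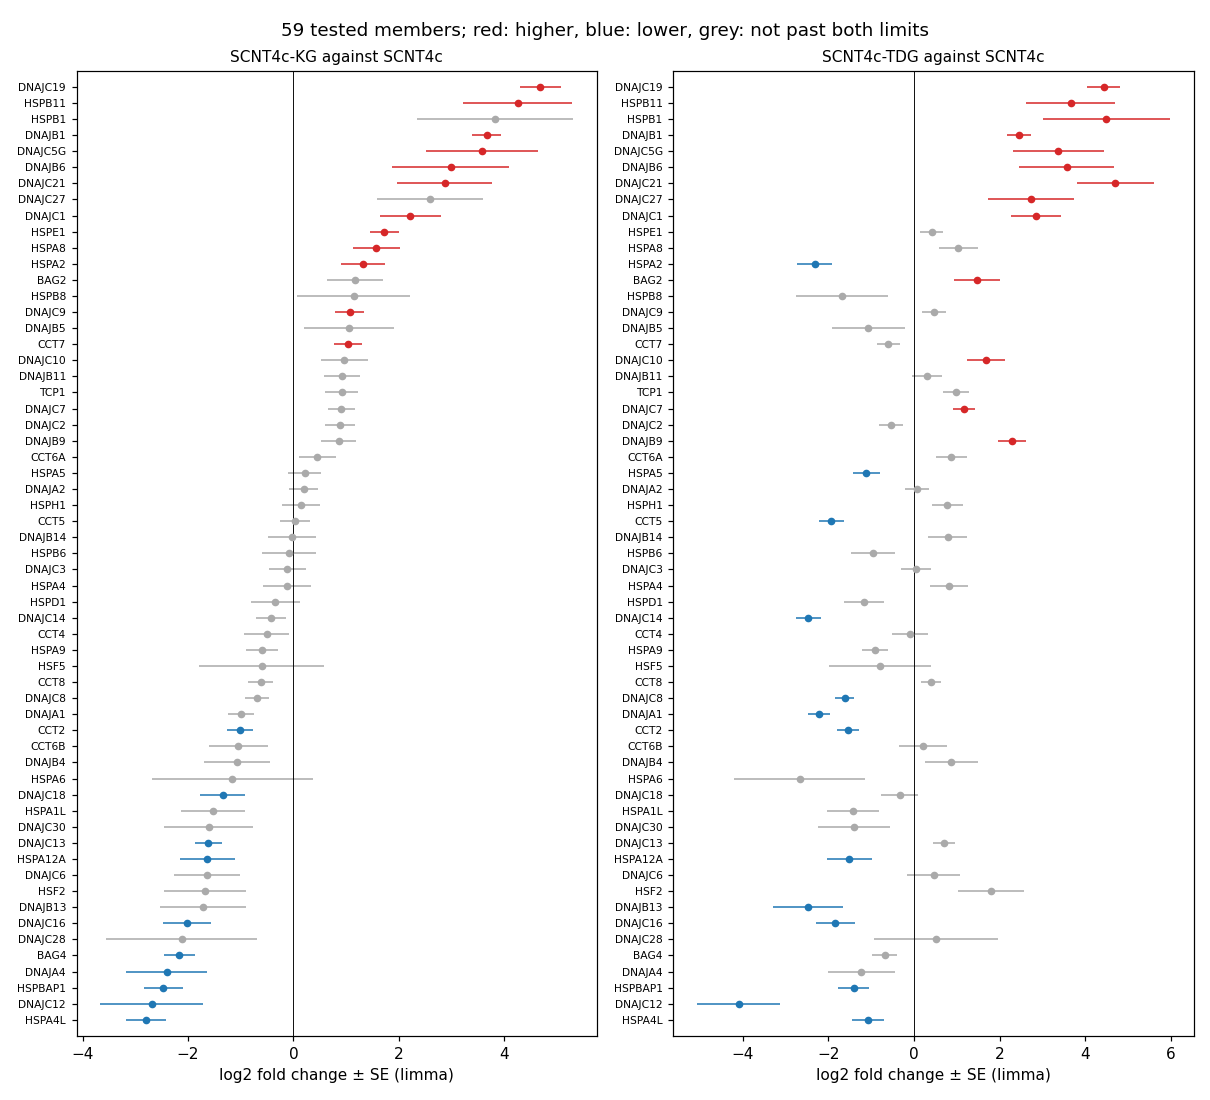
Log2 fold change (horizontal axis, with its standard error) of the 59 tested members in SCNT4c-KG and in SCNT4c-TDG, each against the same 3 SCNT4c libraries; red marks members that rose, blue those that fell, grey those not past both limits. DNAJC19 and DNAJB1 lie far to the right in both panels, while HSPA4L, DNAJC12 and HSPBAP1 lie to the left in both.

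Among the cytosolic chaperones, DNAJB1 (HSP40), the J-protein that works with HSPA8 and with inducible HSP70, rose in both treatments. Its values were 3342, 2374 and 1991 in SCNT4c, 39088, 33675 and 24962 in SCNT4c-KG, 16576, 13821 and 11066 in SCNT4c-TDG, 4802, 4396 and 3514 in SCNT8c and 1862, 1945 and 1964 in PFF. The SCNT4c-KG libraries held the 3 highest values, the SCNT4c-TDG libraries came next, and neither range met that of another group. DNAJB1 rose 12.8-fold in SCNT4c-KG (log2 fold change 3.67 ± 0.28 SE, adjusted p = 1.46e-07) and 5.43-fold in SCNT4c-TDG (2.44 ± 0.28, adjusted p = 1.23e-05). It was lower in SCNT4c-TDG than in SCNT4c-KG (-1.23 ± 0.28, adjusted p = 0.00684), although not past the 2-fold limit with the same total in each library (-0.87) or after quantile normalization (-0.53). The difference between SCNT8c and SCNT4c did not pass (0.74 ± 0.28, adjusted p = 0.0989), nor did that between SCNT4c and PFF (0.38 ± 0.20, adjusted p = 0.121), although the latter passed with DESeq2 (1.19), edgeR (1.15) and 2 other scalings.

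HSPA8 (HSC70), the constitutive HSP70 and the main partner of DNAJB1, was measured at 7811, 18166 and 25339 in SCNT4c and at 38969, 39605 and 61500.2 in SCNT4c-KG. The groups did not overlap, although the SCNT4c libraries were spread widely, with a mean of 17105 ± 8812 (SD, n = 3). HSPA8 rose 2.98-fold in SCNT4c-KG (1.57 ± 0.45, adjusted p = 0.0131), a call lost without SCNT4c library a (1.09, adjusted p = 0.0711) or without SCNT4c-KG replicate 3 (1.36, adjusted p = 0.0588). In SCNT4c-TDG it was 34179, 33248 and 26946, above every SCNT4c library, and the difference did not pass (1.03 ± 0.45, adjusted p = 0.0904; 1.39, adjusted p = 0.0428 without SCNT4c library c, and 1.30, adjusted p = 0.0449 with the same total in each library). SCNT4c-TDG and SCNT4c-KG differed by -0.54 ± 0.45 (adjusted p = 0.454).

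DNAJA1, another cytosolic J-protein partner of HSPA8 and one that carries a lipid anchor, went the other way. It had values of 60057, 75665 and 78288 in SCNT4c, 38257, 34399 and 33791 in SCNT4c-KG, 13270.3, 15077 and 17499.8 in SCNT4c-TDG, and 8285, 7575 and 7537 in PFF. The 4 groups formed separate ranges in that order. Of 7 tested oocyte genes 2 rose and 1 fell in SCNT4c-KG (median log2 fold change 0.94), and 0 rose and 2 fell in SCNT4c-TDG (median 0.09). ZP4, a gene of the egg coat, fell in both and made up most of their summed level, with means of 74784 in SCNT4c, 35050.0 in SCNT4c-KG and 11245 in SCNT4c-TDG. The part of oocyte transcripts in the values of DNAJA1, CCT2 and DNAJC8 was not tested. DNAJA1 fell in SCNT4c-TDG (-2.22 ± 0.25, adjusted p = 1.25e-05) and was lower there than in SCNT4c-KG (-1.22 ± 0.25, adjusted p = 0.00407), though not past the 2-fold limit after quantile normalization (-0.54) or with the same total in each library (-0.86). The SCNT4c-KG difference from SCNT4c lay just inside the 2-fold limit (adjusted p = 0.00609) and passed it without SCNT4c library a (-1.12) or SCNT4c-KG replicate 1 (-1.06). DNAJA2, its close relative, had means of 3919 ± 316 in SCNT4c, 4524 ± 848 in SCNT4c-KG and 4128 ± 528 in SCNT4c-TDG and changed in no embryo comparison.

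**Figure D2:**
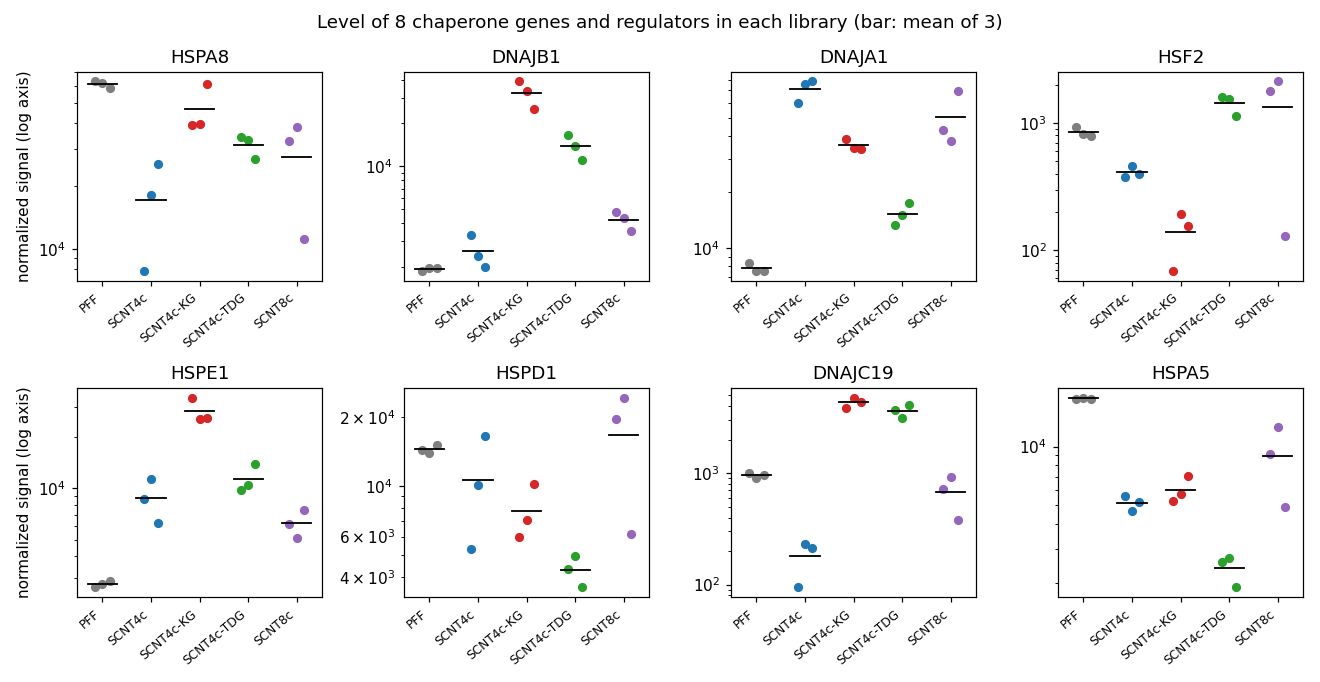
Normalized read count (log axis) of 8 members in each library; points are libraries and bars the mean of 3. DNAJB1 is highest in the 3 SCNT4c-KG libraries, DNAJA1 in the 3 SCNT4c libraries and HSPA5 in the 3 PFF libraries, and SCNT8c replicate 3 lies apart from the other SCNT8c libraries for HSF2 and HSPD1.

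Other HSP70 proteins differed in direction. HSPA2, known for its role in the testis, had values of 412, 283 and 311 in SCNT4c, 1245, 598 and 767 in SCNT4c-KG and 100.3, 58.3 and 47.4 in SCNT4c-TDG. The 3 groups did not overlap: HSPA2 rose in SCNT4c-KG (1.32 ± 0.41, adjusted p = 0.0207), fell in SCNT4c-TDG (-2.32 ± 0.41, adjusted p = 5.92e-04), and differed by -3.65 ± 0.41 between SCNT4c-TDG and SCNT4c-KG (adjusted p = 7.37e-05). The rise in SCNT4c-KG was lost without SCNT4c library b or c (adjusted p = 0.0736 and 0.058) and without SCNT4c-KG replicate 1 (1.03, adjusted p = 0.0969). HSPA4L, a HSP110-like relative that exchanges nucleotide on HSP70, fell from 8067, 8490.3 and 10337 to 1159.8, 1261 and 1451 in SCNT4c-KG (-2.79 ± 0.38, adjusted p = 5.66e-05). In SCNT4c-TDG it was 3401, 3549 and 6167, lower than in SCNT4c (-1.08 ± 0.38, adjusted p = 0.0377; not past both limits with edgeR, DESeq2, 2 other scalings, without any 1 SCNT4c library or without SCNT4c-TDG replicate 1 or 2, -1.15 to -0.75) and higher than in SCNT4c-KG (1.71 ± 0.38, adjusted p = 0.00642).

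HSPH1 and HSPA4, which also exchange nucleotide on HSP70, passed in no embryo comparison. HSPH1 had means of 1994 ± 375 in SCNT4c, 2302 ± 934 in SCNT4c-KG and 3367 ± 63.3 in SCNT4c-TDG, and differences from SCNT4c of 0.15 ± 0.36 (adjusted p = 0.777) and 0.77 ± 0.36 (adjusted p = 0.114). HSPA12A, a distant member of the HSP70 family whose exons overlap those of ENO4, had means of 2030.4 ± 494 in SCNT4c, 663 ± 212 in SCNT4c-KG and 721 ± 225 in SCNT4c-TDG. Its fall in SCNT4c-KG (-1.63 ± 0.53, adjusted p = 0.0238) did not survive leaving out SCNT4c library a (adjusted p = 0.0854) or b (0.053) or SCNT4c-KG replicate 1 (0.0703) or 3 (0.0772), and its call in SCNT4c-TDG was lost with edgeR (adjusted p = 0.0967) and without any 1 of SCNT4c a, b and c or SCNT4c-TDG replicate 1 or 2 (0.059 to 0.141). The inducible HSP70 gene is not listed under the symbol HSPA1A or HSPA1B, and HSP70.2, for which RefSeq gives HSPA1B as a synonym, fell outside the symbols used. It was measured at 98.1 ± 69.6 in SCNT4c and 377 ± 76.4 in SCNT4c-KG (2.14 ± 0.50, adjusted p = 0.00382), against 1479 ± 56.4 in PFF. HSP70.2 did not pass both limits in SCNT4c-TDG or SCNT8c against SCNT4c, nor between the treatments.

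J-proteins of the DNAJA and DNAJB families gave 2 rises and 1 fall in SCNT4c-KG and 3 rises and 2 falls in SCNT4c-TDG, of 11 tested, where 17.6% of all features rose and 19.6% fell in the first comparison and 15.7% rose and 17.6% fell in the second. DNAJA4, whose exons overlap WDR61, fell from a mean of 135 ± 51.5 to 34.1 ± 25.8 in SCNT4c-KG (-2.41 ± 0.78, adjusted p = 0.0241), and the call was lost without SCNT4c library a (adjusted p = 0.0853) or c (0.0561) or SCNT4c-KG replicate 1 (0.105). DNAJB13, a J-protein of the sperm flagellum whose exons overlap UCP2, fell from 331, 299 and 235 to 61, 46.8 and 44.4 in SCNT4c-TDG (-2.48 ± 0.82, adjusted p = 0.0289). That call was lost whichever of the 6 libraries was left out (adjusted p 0.0548 to 0.0815). DNAJB4, another partner of HSPA8, was higher in SCNT4c-TDG (832, 723 and 1031) than in SCNT4c-KG (349.6, 321 and 98.3; 1.93 ± 0.62, adjusted p = 0.0457), and this call too was lost whichever library was left out (adjusted p 0.0549 to 0.185). DNAJB6 was called higher in both treatments while its replicates overlapped those of SCNT4c, which were 59.9, 2.62 and 0, and both calls were lost with edgeR (adjusted p = 0.363 and 0.164), whereas with the assembled transcript of its locus added both passed (2.31, adjusted p = 1.34e-04 in SCNT4c-KG; 3.70, adjusted p = 2.05e-06 in SCNT4c-TDG).

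Of the transcription factors, HSF2 differed between the treatments. Its values were 374, 459.6 and 395 in SCNT4c, 68.6, 193 and 154 in SCNT4c-KG, 1606, 1558 and 1145 in SCNT4c-TDG, 1777, 2127 and 129 in SCNT8c and 932, 825 and 795 in PFF. SCNT4c-KG lay below and SCNT4c-TDG above every SCNT4c library, and 1 SCNT8c library lay among those of SCNT4c-KG. HSF2 was higher in SCNT4c-TDG than in SCNT4c-KG (3.47 ± 0.77, adjusted p = 0.00665). Neither treatment differed from SCNT4c past the test (-1.68 ± 0.77, adjusted p = 0.098 in SCNT4c-KG; 1.80 ± 0.77, adjusted p = 0.0847 in SCNT4c-TDG), whereas fits of the 2 groups alone gave adjusted p-values of 0.00902 and 1.25e-04 for the same differences. HSF1, the factor that drives the classical heat shock response, reached at most 5.09 in any library and was not tested. An assembled transcript lies at its locus and its exons overlap those of DGAT1, so this describes the entry and need not describe the gene. HSF5, a testis factor, had means of 40.1 ± 26 in SCNT4c and 2.01 ± 2.47 in PFF and passed no embryo comparison.

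BAG cochaperones gave 2 testable members. BAG4, which binds HSP70 and silences death receptor signaling, fell from 2490.0, 2649.5 and 3291 in SCNT4c to 542, 657 and 668 in SCNT4c-KG (-2.17 ± 0.29, adjusted p = 5.80e-05). In SCNT4c-TDG it was 1453, 1804 and 1964, between the other groups, and above SCNT4c-KG (1.48 ± 0.29, adjusted p = 0.00335). Its exons overlap those of LSM1, so reads of these genes may be mixed. BAG2, which inhibits the ubiquitin ligase CHIP, rose from 37.9, 63.8 and 44.8 to 156, 126 and 122 in SCNT4c-TDG (1.47 ± 0.53, adjusted p = 0.0434), a call lost whichever of the 6 libraries was left out (adjusted p 0.0559 to 0.139). BAG3, itself a heat-inducible gene, reached at most 2.55 in any library and BAG6 was listed at 0 in all.

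In mitochondria, HSPE1 (HSP10) is the lid of the HSPD1 (HSP60) chamber, and their genes lie head to head on chromosome 15 with 520 bases between them (HSPD1 101360355 to 101373498, minus strand; HSPE1 101374019 to 101376146, plus strand). HSPE1 values were 8701, 11288 and 6246 in SCNT4c, 34077, 25409.7 and 25796 in SCNT4c-KG, 9802, 10440.2 and 13978 in SCNT4c-TDG, 6162, 5146 and 7440.1 in SCNT8c and 2630.1, 2756 and 2876 in PFF. The SCNT4c-KG libraries stood above all others. HSPE1 rose 3.31-fold in SCNT4c-KG (1.73 ± 0.27, adjusted p = 2.03e-04) and not in SCNT4c-TDG (0.41 ± 0.27, adjusted p = 0.26), and the treatments differed by -1.32 ± 0.27 (adjusted p = 0.00404), a call lost after quantile normalization (-0.62) and with the same total in each library (-0.96).

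HSPD1 did not follow HSPE1. It had values of 5273, 10127 and 16468 in SCNT4c, 5959, 7119 and 10171 in SCNT4c-KG, 4337, 4957 and 3604 in SCNT4c-TDG, 19619, 24257 and 6165 in SCNT8c and 14328, 13913 and 15013 in PFF. The SCNT4c-KG range fell within that of SCNT4c, and the SCNT4c-TDG libraries lay below both. None of its embryo comparisons passed (-0.34 ± 0.47, adjusted p = 0.588 in SCNT4c-KG; -1.17 ± 0.47, adjusted p = 0.0664 in SCNT4c-TDG, and -1.60, adjusted p = 0.0245 without SCNT4c library a). Per kilobase of exon, HSPE1 over HSPD1 was 0.646, 0.697 and 0.674 in PFF, 5.80, 3.92 and 1.33 in SCNT4c, 20.1, 12.6 and 8.92 in SCNT4c-KG, 7.95, 7.41 and 13.6 in SCNT4c-TDG and 1.10, 0.746 and 4.25 in SCNT8c. On the log2 scale the ratio differed by 2.07 between SCNT4c-KG and SCNT4c, by 1.58 between SCNT4c-TDG and SCNT4c and by 2.22 between SCNT4c and PFF, with no overlap. The two-sided exact permutation p was 0.1 for each, the smallest that 3 against 3 libraries allow (0.167 after adjustment over 5 comparisons), and 0.3 for SCNT8c against SCNT4c and for SCNT4c-TDG against SCNT4c-KG.

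HSPA9 (mortalin), the HSP70 of mitochondria, had means of 15566 ± 5855 in SCNT4c, 10034 ± 2684 in SCNT4c-KG and 7857 ± 775 in SCNT4c-TDG. The last difference reached an adjusted p of 0.0275 but not the 2-fold limit (-0.92 ± 0.30), which it passed without SCNT4c library a (-1.22). DNAJC19, a J-protein of the import motor at the inner membrane, had the largest log2 fold change of the 59 tested members in SCNT4c-KG. Its values were 94.6, 231 and 213 in SCNT4c, 3853, 4760.1 and 4385 in SCNT4c-KG, 3650.2, 3124 and 4101 in SCNT4c-TDG, 728, 929 and 379 in SCNT8c and 1011, 907 and 956 in PFF. Both treated groups exceeded all other libraries, and they overlapped each other. DNAJC19 rose 25.7-fold in SCNT4c-KG (4.68 ± 0.39, adjusted p = 4.36e-07) and 21.5-fold in SCNT4c-TDG (4.42 ± 0.39, adjusted p = 1.34e-06), and the treatments differed by -0.26 ± 0.39 (adjusted p = 0.702). Both rises passed under every alternative run.

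In the endoplasmic reticulum, HSPA5 (BiP) is the HSP70 and the sensor that restrains the unfolded protein response, and DNAJB9 and DNAJC10 are J-proteins that it works with. HSPA5 values were 5556, 4663 and 5189 in SCNT4c, 5239, 5689 and 7085 in SCNT4c-KG and 2557, 2701 and 1909.8 in SCNT4c-TDG. The SCNT4c-TDG libraries lay below all others, and HSPA5 was lower than in SCNT4c (-1.12 ± 0.32, adjusted p = 0.0133) and than in SCNT4c-KG (-1.33 ± 0.32, adjusted p = 0.00957). Without SCNT4c-TDG replicate 3 neither call held (-0.96, adjusted p = 0.0628; -1.18, adjusted p = 0.0548), nor did the first with edgeR (-0.83) or DESeq2 (-0.81) or either with the same total in each library (-0.84 and -0.97). DNAJB9, itself a target of that response, went the opposite way: 2299, 1899.7 and 2954 in SCNT4c, 4768, 4037 and 3991 in SCNT4c-KG and 11330.2, 12154 and 10920.3 in SCNT4c-TDG. These were 3 separate ranges, with a rise in SCNT4c-TDG (2.29 ± 0.33, adjusted p = 9.98e-05), a difference between the treatments (1.43 ± 0.33, adjusted p = 0.00804) and a SCNT4c-KG difference that missed the test (0.86 ± 0.33, adjusted p = 0.0508).

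DNAJC10 (ERdj5), a reductase of misfolded proteins, rose from 106, 153 and 137 to 485, 369 and 412 in SCNT4c-TDG (1.68 ± 0.44, adjusted p = 0.00864), with 216, 433 and 181 in SCNT4c-KG (0.97 ± 0.44, adjusted p = 0.0932). DNAJC3, which restrains the kinase PERK, changed in neither (1203 ± 72.7 in SCNT4c, 1124 ± 219 in SCNT4c-KG and 1242 ± 48.6 in SCNT4c-TDG). DNAJB11, a soluble partner of HSPA5 whose exons overlap TBCCD1, reached an adjusted p of 0.0474 in SCNT4c-KG without passing the 2-fold limit (0.92 ± 0.35). DNAJC1 was called higher in both treatments (136 ± 11.8 in SCNT4c-KG and 213 ± 40.7 in SCNT4c-TDG, against 28.9 ± 6.8 in SCNT4c), but with the assembled transcript of its locus added the differences were -0.68 and -0.03 and neither passed (adjusted p = 0.144 and 0.956). Of 11 tested genes of the unfolded protein response, members included, 3 rose and 0 fell in SCNT4c-KG (median 0.86, beside -0.30 for all features, of which 17.6% rose and 19.6% fell), and 3 rose and 2 fell in SCNT4c-TDG (median 0.29, beside -0.26, with 15.7% higher and 17.6% lower). That list was chosen with earlier results of these data known, so its counts are a description.

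CCT is a ring of 8 different subunits in equal number, and 7 of them were measured. CCT3 was listed at no more than 4.27 in any library, although its protein is part of every ring, and 3 assembled transcripts lie at its locus. In PFF the 7 subunits lay close together per kilobase of exon, the highest being 2.47, 2.25 and 2.42 times the lowest. In SCNT4c the highest was 21.7, 16.1 and 13.6 times the lowest, with CCT2 at 10135 ± 1436 per kb and CCT4 at 625 ± 216 per kb (mean ± SD, n = 3). The ratio was 18.4, 16.1 and 9.41 in SCNT4c-KG (CCT5 over CCT4), 13.9, 14.4 and 22.2 in SCNT4c-TDG (CCT8 over CCT4) and 4.88, 4.35 and 5.37 in SCNT8c (CCT5 over TCP1). SCNT4c and PFF did not overlap (log2 difference 2.82), nor did SCNT8c and SCNT4c (-1.80), each with a two-sided exact permutation p of 0.1, the smallest possible here (0.25 after adjustment over 5 comparisons). The other comparisons gave p from 0.6 to 1.

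**Figure D3:**
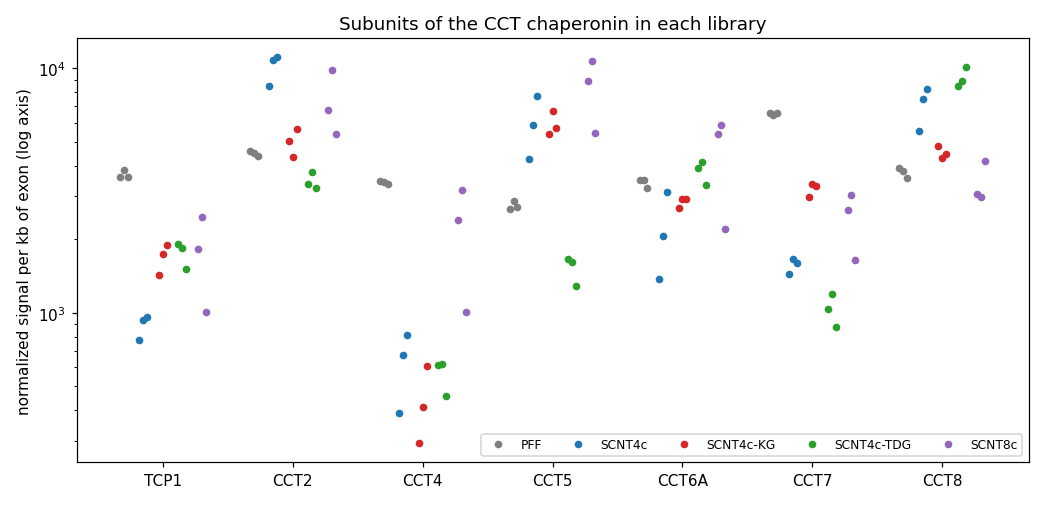
Level per kilobase of exon (normalized read count per kb, log axis) of 7 CCT subunits in the 5 groups; points are libraries, of which each group has 3. The subunits lie together in PFF and apart in SCNT4c, where CCT2 is highest and CCT4 lowest.

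Single subunits changed in different directions. CCT2 fell from 17127, 21803 and 22429 in SCNT4c to 10183, 8801 and 11368 in SCNT4c-KG (-1.01 ± 0.25, adjusted p = 0.0061) and to 6776, 7616 and 6551 in SCNT4c-TDG (-1.54 ± 0.25, adjusted p = 3.19e-04). The first fall lay under the 2-fold limit with edgeR (-0.93), DESeq2 (-0.86) and without SCNT4c library b (-0.96), c (-0.94) or SCNT4c-KG replicate 2 (-0.92). CCT5, whose exons overlap the uncharacterized gene LOC110257272, had 9772, 13425 and 17588 in SCNT4c, overlapping with 12361, 15264 and 13084 in SCNT4c-KG, and 3806, 3701 and 2936 in SCNT4c-TDG, below both. It fell in SCNT4c-TDG against SCNT4c (-1.93 ± 0.29, adjusted p = 1.47e-04) and was lower there than in SCNT4c-KG (-1.97 ± 0.29, adjusted p = 4.58e-04). CCT7 rose in SCNT4c-KG from 2336, 2692 and 2605 to 4825, 5479.6 and 5349 (1.04 ± 0.27, adjusted p = 0.0081) and was lower in SCNT4c-TDG than there (-1.64 ± 0.27, adjusted p = 0.00105). Its rise was under the 2-fold limit after quantile normalization (0.84), with the same total in each library (0.95) and without SCNT4c library a (0.98) or SCNT4c-KG replicate 2.

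CCT8 was higher in SCNT4c-TDG (16065, 16796 and 19182) than in SCNT4c-KG (9123, 8138 and 8459.8; 1.01 ± 0.24, adjusted p = 0.00909), a call lost without SCNT4c-KG replicate 2 (0.98) or SCNT4c-TDG replicate 3 (0.94, adjusted p = 0.0506). TCP1, the alpha subunit, whose exons overlap those of ACAT2, had adjusted p-values of 0.0306 in SCNT4c-KG and 0.0249 in SCNT4c-TDG but stayed under the 2-fold limit (0.92 ± 0.31 and 0.98 ± 0.31), which it passed with edgeR (1.02 and 1.23) and DESeq2 (1.08 and 1.27). CCT6A passed in no embryo comparison, with means of 6033 ± 2409.8 in SCNT4c, 7849 ± 389 in SCNT4c-KG and 10449 ± 1105 in SCNT4c-TDG.

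J-proteins of the DNAJC family have varied roles outside general folding, and 5 of the 19 tested rose and 4 fell in SCNT4c-KG, and 7 rose and 4 fell in SCNT4c-TDG. Among these rises, DNAJC1 and DNAJC21 in both treatments and DNAJC27 in SCNT4c-TDG were lost with the assembled transcript of the locus added. Among all features, 17.6% rose and 19.6% fell in SCNT4c-KG, and 15.7% rose and 17.6% fell in SCNT4c-TDG. DNAJC13 (RME-8), which works with HSPA8 on endosomes, had 2465, 2601 and 2885 in SCNT4c, 843, 763 and 1000.3 in SCNT4c-KG and 4098, 4073 and 4802 in SCNT4c-TDG. It fell in SCNT4c-KG (-1.61 ± 0.26, adjusted p = 2.47e-04) and was 4.99-fold higher in SCNT4c-TDG than in SCNT4c-KG (2.32 ± 0.26, adjusted p = 6.42e-05). DNAJC6 (auxilin), which strips clathrin coats with HSPA8, had 158, 178 and 123 in SCNT4c-KG and 451, 545 and 1117 in SCNT4c-TDG (a 4.28-fold difference, adjusted p = 0.033), and the call was lost whichever of these libraries was left out (adjusted p 0.0538 to 0.15).

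DNAJC14, an endoplasmic reticulum J-protein whose exons overlap ORMDL2, had 1738, 2225 and 2479 in SCNT4c, 1230.0, 1556 and 2043 in SCNT4c-KG and 369, 369 and 412 in SCNT4c-TDG. The SCNT4c-TDG libraries lay well below the overlapping other groups (-2.47 ± 0.28, adjusted p = 1.47e-05 against SCNT4c; -2.04 ± 0.28, adjusted p = 2.97e-04 against SCNT4c-KG). DNAJC8, a protein associated with the spliceosome, fell in SCNT4c-TDG from 18004 ± 2099 to 5841 ± 695 (-1.62 ± 0.22, adjusted p = 6.73e-05). It had 11089 ± 815 in SCNT4c-KG. DNAJC2, which sits on ribosomes, was lower in SCNT4c-TDG (1389 ± 133) than in SCNT4c-KG (3812 ± 1072; -1.42 ± 0.29, adjusted p = 0.00385). DNAJC7, which has TPR domains and binds HSP70 and HSP90, rose in SCNT4c-TDG from 2996 ± 84 to 6764 ± 699.9 (1.17 ± 0.26, adjusted p = 0.00319).

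DNAJC9, a chaperone of histones whose exons overlap FAM149B1, rose in SCNT4c-KG from 2273 ± 62 to 4915 ± 1459 (1.07 ± 0.28, adjusted p = 0.00776), though not past 2-fold without replicate 1 (0.86), after quantile normalization (0.91) or with the same total in each library (0.98). DNAJC16 fell in both treatments, from 333 ± 51.3 to 82.4 ± 19.9 in SCNT4c-KG (-2.02 ± 0.46, adjusted p = 0.00318) and 94.5 ± 30.8 in SCNT4c-TDG (-1.84 ± 0.46, adjusted p = 0.00625). DNAJC18 fell in SCNT4c-KG from 2457 ± 634 to 947 ± 76.1 (-1.34 ± 0.43, adjusted p = 0.0228), a call lost without SCNT4c library b (adjusted p = 0.0638) or c (0.0842) or SCNT4c-KG replicate 1 (0.0605) or 3 (0.0595). DNAJC5G, related to a synaptic vesicle J-protein, had 18.9, 30.6 and 0 in SCNT4c, 165, 143 and 44.2 in SCNT4c-KG and 110.4, 117 and 52 in SCNT4c-TDG, and both of its calls (3.58 and 3.37) were lost without SCNT4c library c (2.03, adjusted p = 0.054; 1.82, adjusted p = 0.0865) or without replicate 1 or 2 of the treated group (adjusted p 0.0547 to 0.0792). HSPBAP1, which binds HSPB1 and is not a chaperone by fold, fell from 965 ± 46.1 to 183 ± 76.2 in SCNT4c-KG (-2.47 ± 0.37, adjusted p = 1.23e-04) and to 363 ± 30.7 in SCNT4c-TDG (-1.41 ± 0.37, adjusted p = 0.00811).

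Against the donor fibroblasts, 18 of 59 tested members were higher and 25 lower in SCNT4c (72.9%), where 78.2% of all features differed (39.7% higher and 38.5% lower). The median log2 difference was -0.72 for the members and 0.07 for all features. This centre depended on the scaling: the median of all features was 0.92 with the same total in each library, 0.96 with edgeR and 1.01 with DESeq2, and members were then split 22 higher and 20 lower, 23 and 20, and 23 and 19 (45.5% and 31.8%, 46.3% and 30.4%, and 47.4% and 30.8% of all features). HSPA8 was the most abundant member per kilobase in PFF (27384 ± 952 per kb), ahead of HSPD1 (7216 ± 278 per kb), and DNAJA1 was the most abundant in SCNT4c (25181 ± 3479 per kb), ahead of HSPE1 (15396 ± 4439 per kb), whose ranges over libraries did not meet. In SCNT4c-KG the order was led by HSPE1 (50048 ± 8620 per kb) and DNAJB1 (24962 ± 5461 per kb), and in SCNT4c-TDG by HSPE1 (20082 ± 3961 per kb) and HSPA8 (13994 ± 1750.4 per kb), and the libraries of these neighbours did not overlap in either group.

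**Figure D4:**
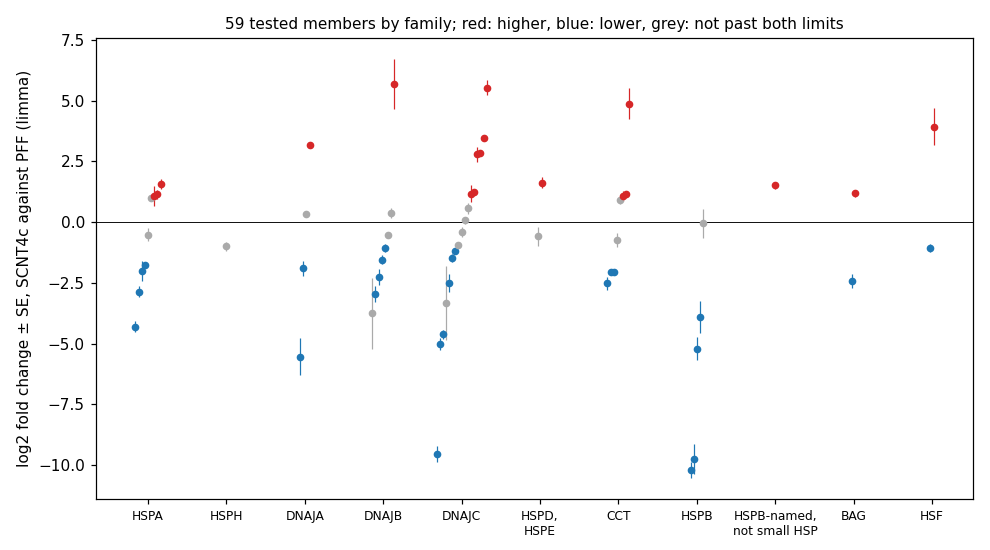
Log2 difference between SCNT4c and PFF (vertical axis) of each member tested there, by family; points are members with their standard error, red those higher, blue those lower and grey those not past both limits. In the HSPB family 4 of 5 points lie far below 0, while the DNAJC family spreads to both sides.

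HSPA8 was lower in SCNT4c (17105 ± 8812) than in PFF (63386, 62083 and 59205; -2.01 ± 0.41, adjusted p = 0.0043), as was HSPA5 (5136 ± 449 against 17596 ± 162; -1.78 ± 0.08, adjusted p = 5.98e-06), although with DESeq2 HSPA5 lay at the 2-fold limit without passing it (-0.99). HSPA4 had 636, 845 and 1220.5 in SCNT4c and 17202, 17354 and 16818 in PFF (-4.30 ± 0.24, adjusted p = 1.03e-05), and TCP1 1725 ± 199.7 against 7113 ± 290.1 (-2.05 ± 0.12, adjusted p = 1.22e-05). HSPH1 was at the 2-fold limit (-0.99 ± 0.18, adjusted p = 0.00236), which it passed without PFF replicate 3 (-1.10) or SCNT4c library c (-1.13), while it was -0.49 (adjusted p = 0.0315) after quantile normalization, -0.37 (adjusted p = 0.0764) with the same total in each library, -0.23 (adjusted p = 0.331) with edgeR and -0.19 (adjusted p = 0.486) with DESeq2. HSF2 was just past that limit (-1.06 ± 0.16, adjusted p = 9.85e-04), but not without PFF replicate 1 or SCNT4c library a (-0.99 each), with the same total in each library (-0.43), with edgeR (-0.31, adjusted p = 0.205) or DESeq2 (-0.27, adjusted p = 0.215) or in a fit of all 15 libraries (adjusted p = 0.206), and it turned after quantile normalization (0.021). HSPD1 (-0.59 ± 0.39, adjusted p = 0.204) and HSPA9 (-0.51 ± 0.28, adjusted p = 0.128) did not pass, and their sign turned with edgeR (0.32 for each), DESeq2 and the same total in each library.

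Lower in SCNT4c were also DNAJC10 (132 ± 23.6 against 3248 ± 192; -4.62 ± 0.18, adjusted p = 2.87e-06), DNAJC1 (-5.02 ± 0.24, adjusted p = 6.24e-06, but -1.58, adjusted p = 1.39e-04 with the assembled transcript of its locus added) and DNAJA3, a mitochondrial J-protein with 123, 149 and 120.4 in PFF and 7.1, 1.75 and 0 in SCNT4c (adjusted p = 6.30e-04). DNAJC5 (cysteine string protein), whose exons overlap LOC110257381, had 1092, 1076 and 1164 in PFF and at most 0.83 in SCNT4c (adjusted p = 1.77e-06). Higher in SCNT4c were DNAJA1 (3.18 ± 0.11, adjusted p = 2.06e-06), DNAJC9 (2273 ± 62 against 205 ± 13.3; 3.47 ± 0.13, adjusted p = 2.62e-06), DNAJC8 (18004 ± 2099 against 2492 ± 131; 2.85 ± 0.11, adjusted p = 2.75e-06) and HSPE1 (1.63 ± 0.22, adjusted p = 5.58e-04). The testis-enriched CCT6B (131 ± 35.1 against 4.5 ± 4.61; 4.89 ± 0.63, adjusted p = 4.78e-04), DNAJB13 (288 ± 49 against 8.04 ± 6.97; 5.69 ± 1.04, adjusted p = 0.00245) and HSPA1L (233 ± 7.41 against 78.6 ± 13.7; 1.57 ± 0.21, adjusted p = 6.17e-04) were also higher, as was DNAJC6 (481 ± 101 against 70 ± 20.9; 2.79 ± 0.32, adjusted p = 2.59e-04).

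Small heat shock proteins were mostly lower in SCNT4c than in PFF, namely 4 of the 5 tested, and 0 were higher, where 38.5% of all features were lower and 39.7% higher. HSPB6, known from muscle, had 9351, 10241 and 9226 in PFF and 536, 139.8 and 233 in SCNT4c (-5.20 ± 0.47, adjusted p = 9.18e-05). HSPB7, a heart and muscle protein, had 1617, 1443 and 1298 in PFF and no more than 1.53 in any embryo library (adjusted p = 1.66e-06). HSPB1 (HSP27), the heat-inducible member, had 1424, 1560.2 and 1216 in PFF, 3.15, 0 and 0 in SCNT4c, 99.6, 118 and 0 in SCNT4c-KG, 36, 41.4 and 29.1 in SCNT4c-TDG and 0 in all of SCNT8c (adjusted p = 1.70e-05 for SCNT4c against PFF). In SCNT4c-KG it did not pass with limma, but it did with edgeR (adjusted p = 0.0159), with DESeq2 (adjusted p = 7.04e-04) and without replicate 3, the library at 0. Its call in SCNT4c-TDG against SCNT4c (adjusted p = 0.0292) was lost without any 1 of the libraries but SCNT4c a (adjusted p 0.0655 to 0.0895), and with the assembled transcript of its locus added (0.97, adjusted p = 0.33), while the same sum passed in SCNT4c-KG (3.24, adjusted p = 0.00348). All fibroblast markers tested were also lower in SCNT4c (11 of 11, median log2 difference -9.76), and the part of other cell-type differences in these values was not tested. The HSPB genes took 0.0451% ± 0.00188 of the reads in PFF and 0.00179% ± 0.00126 in SCNT4c (SD, n = 3), while the 4 DNAJA genes took 0.0413% ± 0.00118 and 0.417% ± 0.0468.

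At the 8-cell stage, 2 of 59 members rose relative to SCNT4c and 1 fell, where 5.79% of all features changed (2.62% higher and 3.16% lower). The medians were 0.18 for the members and -0.31 for all features. DNAJC19 rose 3.79-fold (1.92 ± 0.39, adjusted p = 0.0207) and CCT4 rose from 972, 1668 and 2029 to 5954, 7922 and 2513 (1.72 ± 0.42, adjusted p = 0.0336). CCT8 fell from 10442, 14112 and 15582 to 5795, 5650.4 and 7930.3 (-1.05 ± 0.24, adjusted p = 0.0276). In each the SCNT8c library nearest to SCNT4c was replicate 3. These 3 calls were each lost without SCNT4c library b or without SCNT8c replicate 1 or 2, and 0 members passed in a fit of the 2 groups alone (smallest adjusted p 0.198, with 10 of 55 members at an unadjusted p under 0.05, 18.2%, beside 19.7% of all features; in the fit of all embryos these were 24 of 59, 40.7%, and 28.9%).

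Without SCNT8c replicate 3, 21 members changed (35.6%, beside 32.3% of all features), of which 14 rose. Among them were HSPA8 (1.21, adjusted p = 0.0198), HSPA5 (1.07, adjusted p = 0.00292), HSPD1 (1.19, adjusted p = 0.0212), TCP1 (1.25, adjusted p = 0.00101) and HSF2 (2.25, adjusted p = 5.50e-04). With all 3 libraries these were 0.65 ± 0.45, 0.69 ± 0.32, 0.58 ± 0.47, 0.90 ± 0.31 and 0.95 ± 0.77, and none passed (adjusted p 0.085 to 0.43). HSPA8 had 32694, 38491 and 11086 and HSPA5 9153, 12626 and 4895 in SCNT8c, replicate 3 being the lowest of each and within the SCNT4c range. DNAJA1 had 43051, 37667 and 69789, replicate 3 being the highest and again within it (-0.55 ± 0.25, adjusted p = 0.161). With DESeq2, 11 members changed and all rose, where 10.4% of all features rose and 4.07% fell, and with edgeR 3 rose and 0 fell, where 3.53% rose and 0.913% fell.

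**Figure D5:**
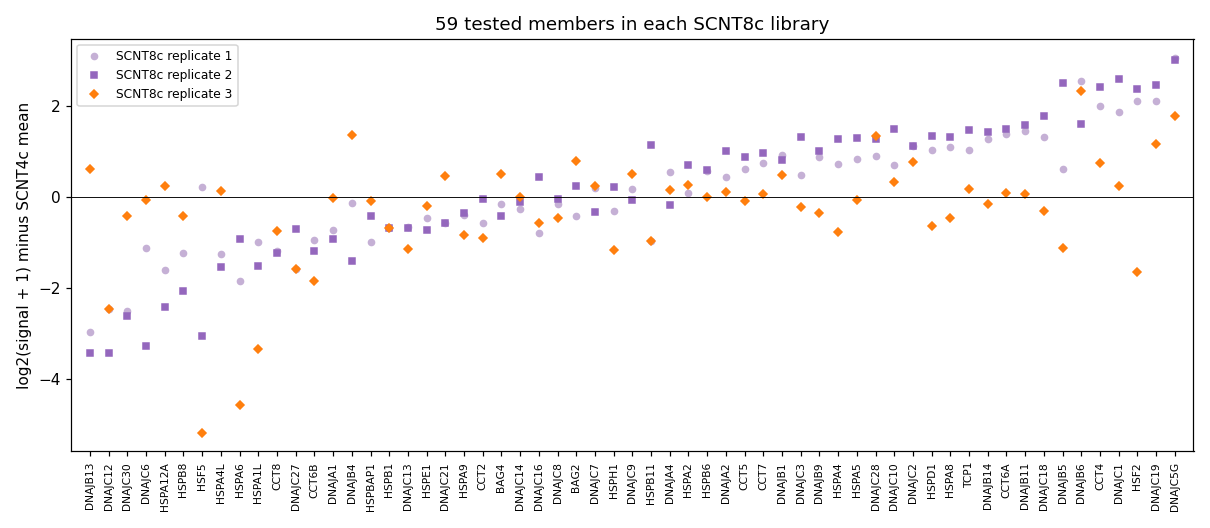
Difference of each SCNT8c library from the SCNT4c mean (log2 value, vertical axis) for the tested members; each point is 1 member in 1 library. Replicates 1 and 2 lie together at most members, while replicate 3 often lies nearer 0 and at some, such as HSF5 and HSPA6, farther from it.

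Genes of the same pathways that lie outside the symbols used were taken from lists of HSP90, its cochaperones, prefoldin and tubulin cofactors, folding factors of the endoplasmic reticulum and mitochondria, and regulators of the heat shock factors. These lists were chosen with earlier results of these data known, so their counts are a description and not an independent result. Of 45 tested, 21 rose and 3 fell in SCNT4c-KG (median log2 fold change 1.11, beside -0.30 for all features, of which 17.6% rose and 19.6% fell). In SCNT4c-TDG 13 rose and 2 fell (median 0.86, beside -0.26, with 15.7% higher and 17.6% lower), and 3 were higher and 10 lower there than in SCNT4c-KG (median -0.55, beside -0.02, with 7.07% higher and 9.13% lower). In SCNT8c 3 rose and 0 fell (median 0.63, beside -0.31, with 2.62% higher and 3.16% lower), and against PFF 6 of 47 were higher and 30 lower in SCNT4c (median -1.95, beside 0.07, with 39.7% higher and 38.5% lower). Prefoldin hands unfolded actin and tubulin to CCT, and of 9 tested genes of prefoldin and tubulin folding 6 rose and 1 fell in SCNT4c-KG, and 4 rose and 0 fell in SCNT4c-TDG. PDRG1, a prefoldin-like subunit, rose from 41.8 ± 3.09 to 2968 ± 385 in SCNT4c-KG (6.11 ± 0.43, adjusted p = 8.28e-08), PFDN1 from 296 ± 46.3 to 4411 ± 749 (3.89 ± 0.36, adjusted p = 1.46e-06), and VBP1, the subunit PFDN3, from 5.16 ± 3.96 to 123 ± 34.1 (4.50 ± 0.80, adjusted p = 5.33e-04). In SCNT4c-TDG VBP1 reached 258 ± 72.6 (5.57 ± 0.80, adjusted p = 9.98e-05) and the tubulin cofactor TBCA 807 ± 146 from 69.5 ± 21.7 (3.54 ± 0.49, adjusted p = 7.51e-05), whereas PDRG1 was at 93.3 ± 21.3 there (-4.99 ± 0.43 against SCNT4c-KG, adjusted p = 7.85e-06).

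Of 13 tested HSP90 cochaperones, 7 rose and 1 fell in SCNT4c-KG (17.6% and 19.6% of all features), and 4 rose and 1 fell in SCNT4c-TDG (15.7% and 17.6%), with median log2 fold changes of 1.49 and 0.21. STIP1 (HOP), which links HSPA8 to HSP90, rose from 5342 ± 816 to 14999 ± 2258 (1.49 ± 0.32, adjusted p = 0.00225), with 5835 ± 545 in SCNT4c-TDG. AHSA1, which speeds up the ATPase of HSP90, fell from 12836 ± 1309.8 to 4232 ± 1082 (-1.63 ± 0.43, adjusted p = 0.00882) and to 3891 ± 426 in SCNT4c-TDG (-1.72 ± 0.43, adjusted p = 0.00686). HSP90AB1 itself did not pass the 2-fold limit in SCNT4c-KG (7350.4 ± 1016 to 12265 ± 2688; 0.73 ± 0.25, adjusted p = 0.0348). Of 14 tested genes known to be induced by heat, members included, 6 rose and 3 fell in SCNT4c-KG (median 1.11), and 3 rose and 3 fell in SCNT4c-TDG (median 0.27), beside the 17.6% and 15.7% of all features that rose. This list too was chosen with earlier results of these data known. In the endoplasmic reticulum the protein disulfide isomerase PDIA6 rose in SCNT4c-KG from 1135 ± 94.1 to 3027 ± 915 (1.37 ± 0.30, adjusted p = 0.00252) and fell in SCNT4c-TDG to 412 ± 31.1 (-1.46 ± 0.30, adjusted p = 0.00177) and was lower there than in SCNT4c-KG (-2.83 ± 0.30, adjusted p = 4.09e-05). PDIA3, a disulfide isomerase of glycoproteins, fell in SCNT4c-KG from 10544 ± 6196 to 3505 ± 634 (-1.45 ± 0.32, adjusted p = 0.00282). Of 10 tested folding factors of that compartment, 3 rose and 1 fell in SCNT4c-KG (median 0.34, with 17.6% of all features higher and 19.6% lower), and 1 rose and 1 fell in SCNT4c-TDG (median 0.28, with 15.7% higher and 17.6% lower). SERPINH1, the collagen chaperone, had 25922 ± 444 in PFF and 29.8 ± 17.4 in SCNT4c (-9.95 ± 0.53, adjusted p = 9.09e-06).

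Other genes of these lists with large differences were spread over several roles. PDCL, a phosducin-like partner of CCT, fell from 241 ± 41.6 in SCNT4c to 41.7 ± 24.9 in SCNT4c-KG (-2.67 ± 0.53, adjusted p = 0.00118), and it was higher in SCNT4c-TDG than in SCNT4c-KG (1.83 ± 0.53, adjusted p = 0.0269), a call lost without SCNT4c-KG replicate 1 or 2 or any 1 of the SCNT4c-TDG libraries (adjusted p 0.0640 to 0.115). CLPX, the unfoldase of the mitochondrial protease, was higher in SCNT4c-TDG (1515 ± 121) than in SCNT4c-KG (393 ± 107; 1.97 ± 0.41, adjusted p = 0.00421), as was SUGT1, an HSP90 cochaperone (3377 ± 426 against 1624 ± 137; 1.05 ± 0.24, adjusted p = 0.00721), though not past 2-fold without SCNT4c-KG replicate 2 (0.98) or SCNT4c-TDG replicate 2 (0.96). FKBPL, an HSP90-binding protein, was lower in SCNT4c-TDG (13.1 ± 1.2) than in SCNT4c-KG (190 ± 58.7; -3.71 ± 0.78, adjusted p = 0.00451).

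In SCNT8c the other listed genes that rose were CLPP, the peptidase that works with CLPX (2.52 ± 0.48, adjusted p = 0.0189), PDRG1 (1.56 ± 0.43, adjusted p = 0.0473) and PTGES3 (p23), an HSP90 cochaperone (1.43 ± 0.30, adjusted p = 0.0239). Each call was lost in a fit of the 2 groups alone (adjusted p 0.198 to 0.238) and without SCNT4c library b or c or SCNT8c replicate 1 or 2. Against PFF, MANF, an endoplasmic reticulum protein induced by unfolded proteins, was higher in SCNT4c (19231 ± 884 against 2782 ± 147; 2.79 ± 0.08, adjusted p = 1.08e-06), as were GRPEL1, the nucleotide exchange factor of HSPA9 (2.20 ± 0.11, adjusted p = 6.31e-06), and AHSA1 (2.15 ± 0.10, adjusted p = 6.15e-06). STUB1 (CHIP), the ubiquitin ligase that binds HSP70, was lower (1.61 ± 2.07 against 172 ± 20.8; -6.36 ± 0.61, adjusted p = 1.17e-04), and so was VBP1 (-5.50 ± 0.52, adjusted p = 1.13e-04).

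The 24 members that were tested in neither fit reached at most 49.0 in any library, in DNAJB8, and 5 of them were listed at 0 in every library (BAG6, DNAJC4, HSPA13, HSPA14 and HSPB3). Assembled transcripts without a gene name lay at the loci of 20 of these 24, and at 33 of the other 63, and more than 1 known gene shared the locus of 18 and of 27. BAG6, HSPA14 and CCT3 encode proteins that most cells make, so these low values describe the entries in the table and need not describe the genes. Over all 87 members, 24 had exons that overlap those of another known gene. The strand setting of the counting is not stated, and reads of overlapping genes may be split or lost.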

How the data were processed

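RNA-seq was analysed from 15 libraries, as 1 table. The deposited values are a normalized signal: per the labels and the methods, the authors used Casava 1.8.2 for base calls, Trimmomatic 0.39 for trimming, STAR 2.5.3a for alignment to Sscrofa11.1 with unique alignments retained and StringTie 2.1.2 for transcript assembly, counted with HTSeq and normalized with DESeq2. How the factor per library was made was not tested. Multiplying it back gave whole reads (tolerance 0.01 reads) for all values, so lengths, copies and shared exons affect levels as they do in counts. The table's columns were assigned by sample title, since the descriptions of the SCNT4c-KG samples carry names of SCNT4c columns. Of 43535 entries, 241 repeats of a gene ID were dropped, HSPA4 once among them.

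Members and gene lists were chosen with earlier results of these data known. The values were tested as log2(value + 1) with limma 3.58.1 (R 4.3.3; empirical Bayes with trend) on features with a mean of at least 10: the 12 embryo libraries in 1 fit, SCNT4c and PFF in another, with Benjamini-Hochberg adjustment over 18942 and 19287 features. No batch is given in the sources used here. Named are core members in every comparison, the 8 largest rises and falls among changed members without overlap and with 50 or more on average in whichever group was higher, and 3 of each among the other listed genes. Members named outside this rule (such as DNAJA2, DNAJC3, DNAJB6, DNAJB11 and HSF5) were added with their values seen.

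Alternatives were pseudocounts of 0.1 and 10, other filters, quantile normalization, equal totals, edgeR 4.0.16 and DESeq2 1.42.0 on the recovered reads, fits of other sets of groups, no fold limit and each library left out. The labels number SCNT4c in conflicting ways, so a replicate block was fitted only for SCNT4c-TDG and SCNT4c-KG. Same-numbered libraries correlated at -0.061 to 0.195, and numbers were not treated as pairs. The tests were also run on simulated reads in which few genes were changed. There limma and edgeR missed most changes and made few wrong calls, while DESeq2 found more changes and made many more wrong calls. In the real data 37.2% of features changed in SCNT4c-KG, so these rates need not hold here and do not rank the tests. Promoters and motifs were read with Python 3.11.15 and pysam 0.24.0, and permutation tests used scipy 1.17.1.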

Additional observations from a re-analysis of the deposited data

How the results depend on the processing

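The number of changed members kept within 1.5 times its value under every alternative for SCNT4c-KG against SCNT4c (22; 16 to 20 with 1 library left out), SCNT4c-TDG against SCNT4c-KG (17; 14 to 15) and SCNT4c against PFF (43; 40 to 45). Of all features, 37.2% changed in SCNT4c-KG (28.9% to 33.1% with 1 library left out), 16.2% between the treatments (9.45% to 13.3%) and 78.2% against PFF (73.6% to 79.5%). For SCNT4c-TDG against SCNT4c (26, beside 33.3% of all features) the number of changed members ranged from 16 to 24 with 1 library left out (23.7% to 27.7% of all features). For SCNT8c against SCNT4c (3, beside 5.79% of all features) it was 6 with a pseudocount of 10 (8.77%), 5 with a minimum mean of 50 (12.5%), 11 with DESeq2 (14.4%) and 0 in a fit of the 2 groups. With 1 library left out it was 0 to 21 (0.164% to 32.3% of all features), the most without SCNT8c replicate 3. Over all features 1096 became 2733 with DESeq2, 842 with edgeR and 0 in a fit of the 2 groups. The cause was not tested. A replicate block, for which SCNT4c-TDG was fitted with SCNT4c-KG and no other group, chosen in this form after seeing the data, gave 20 changed members (26.5% of all features), as that fit gave without it (27.5%), and lost no call. Of the changed members and other changed genes named, 18 of 31 kept their call under every alternative in SCNT4c-KG, 19 of 31 in SCNT4c-TDG, 14 of 23 between the treatments, 39 of 49 against PFF and 0 of 6 in SCNT8c. Assembled transcripts were added only to members that were the only known gene at their locus, so other calls did not face that alternative.

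Signs turned mostly for differences that had not passed. In SCNT4c-KG against SCNT4c these were HSPA5 (-0.030 after quantile normalization), HSPD1 (-0.77 to 0.048 with 1 library left out) and HSPH1 (-0.16 to 0.42). Between SCNT4c-TDG and SCNT4c-KG they were HSPB1 (-0.20 with a pseudocount of 10, -0.87 with edgeR, -0.88 with DESeq2, -1.60 to 1.85 with 1 library left out), HSPA8 (0.14) and HSPA9 (0.24) after quantile normalization, HSPA9 with equal totals (0.040) and TCP1 (-0.058 to 0.16 with 1 library left out). Against PFF, HSF2 and HSPA6 (1.08, adjusted p = 0.045), which had both passed, turned after quantile normalization (0.021 and -0.32). HSPA9 and HSPD1, which had not passed, turned with equal totals (0.11 and 0.034), edgeR (0.32 for each) and DESeq2 (0.36 for each). Adding the assembled transcript of the locus, chosen after seeing the data, turned DNAJC1 and DNAJC21 in SCNT4c-KG (-0.68 and -0.22) and in SCNT4c-TDG (-0.030 and -0.11), DNAJC27 in SCNT4c-TDG (-0.73), and HSPB1 between the treatments (-2.26, adjusted p = 0.0496). SCNT4c-KG had the fewest reads, and a member that did not pass is not shown to be unchanged.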

Other observations

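At some loci the named gene and the assembled transcript without a gene name gave different pictures. At DNAJB6, a J-protein that keeps aggregation-prone proteins in solution, the named gene had means of 82.2 in PFF, 20.9 in SCNT4c, 47 in SCNT4c-KG, 71.8 in SCNT4c-TDG and 27.2 in SCNT8c, while the assembled transcript had 838, 274, 1341, 3554 and 651. Summed, the locus rose by 2.31 in SCNT4c-KG (adjusted p = 1.34e-04) and by 3.70 in SCNT4c-TDG (adjusted p = 2.05e-06) against SCNT4c, and it differed by 1.39 between SCNT4c-TDG and SCNT4c-KG (adjusted p = 0.0124), by 1.24 between SCNT8c and SCNT4c (adjusted p = 0.0473) and by -1.72 between SCNT4c and PFF (adjusted p = 0.0025). At DNAJC21, which takes part in ribosome maturation, the named gene was called higher in both treatments, from 0.54 ± 0.468 in SCNT4c to 10.2 ± 3.25 in SCNT4c-KG and 38.1 ± 7.87 in SCNT4c-TDG, while the assembled transcript had means of 176, 146 and 126, and the sums did not differ past the test (-0.22, adjusted p = 0.706 and -0.11, adjusted p = 0.856). At DNAJC1 the assembled transcript had means of 291 in SCNT4c, 67.2 in SCNT4c-KG, 102 in SCNT4c-TDG, 151 in SCNT8c and 2.1 in PFF, against 959 in PFF for the named gene. Which transcript the assembled features represent was not tested.

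As a share of all reads, the 87 members took 0.980% ± 0.00711 in PFF, 1.41% ± 0.223 in SCNT4c, 1.42% ± 0.112 in SCNT4c-KG, 1.31% ± 0.0161 in SCNT4c-TDG and 1.504% ± 0.347 in SCNT8c (SD, n = 3), where replicates 1, 2 and 3 had 1.56%, 1.82% and 1.13%. DNAJA1 supplied 28.1% of the members' reads in SCNT4c and 18.7% in SCNT8c, while HSPA8 supplied the most in PFF (22.6%), SCNT4c-KG (17.2%) and SCNT4c-TDG (16.0%). The 13 DNAJB genes took 0.0446% ± 0.00459 of all reads in SCNT4c, 0.212% ± 0.0304 in SCNT4c-KG, 0.197% ± 0.0228 in SCNT4c-TDG, 0.0803% ± 0.0276 in SCNT8c and 0.0538% ± 0.000495 in PFF.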
